A study of Mus musculus with 6 samples.

Results

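The genes described here are 39 genes of mitosis, the spindle and the kinetochore, measured in mouse lung endothelium, the inner lining of vessels. They are a fixed list of named genes. Each was read on expression arrays through the probe set with the highest mean signal among the probe sets annotated to that gene alone. By this rule 38 of the 39 genes had a value, among 12277 genes tested. No probe set named Ccnb1, which encodes cyclin B1, by itself, so it has no value here.

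The knockout group held 3 arrays of cells from mice with VE-Cadherin-Cre and HIF-2a floxed on both copies. The control group held 3 arrays, described in the sample text as VE-Cadherin-Cre with a floxed and a WT copy, in the series text as floxed/floxed, and in the genotype label as wild type control. VE-cadherin is an endothelial gene, so its promoter drives Cre in endothelium. Cells taken from lung were purified in several rounds by endothelial markers and checked by flow cytometry. HIF-2α, encoded by Epas1, is an oxygen-sensitive transcription factor. All 6 arrays came from cells kept at 0.5% oxygen for 16 h, and there is no array at normal oxygen. The comparison asks how expression under low oxygen differs between cells labelled HIF-2a knockout and control cells. Whether replicate arrays stem from different mice or cultures is not stated, and the p-values therefore reflect array-to-array spread, which may be technical.

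Entry into mitosis is driven by CDK1 bound to cyclins A and B, which CDC25 phosphatases activate. Polo-like and Aurora kinases then build the spindle, the checkpoint holds anaphase until kinetochores are attached, and the anaphase-promoting complex (APC/C) then marks securin and cyclin B for destruction, which frees separase and lets the cell divide. Most of these genes are transcribed late in the cell cycle, and in vessels they are known as markers of dividing endothelial cells. Short promoter elements are known for this group. They are the CCAAT box, bound by NF-Y, and the cell cycle genes homology region (CHR), with the letters TTTGAA or TTTAAA, bound by MuvB complexes that hold these genes silent in resting cells and, with B-MYB and FOXM1, switch them on before mitosis.

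The promoters of 6 of the genes are shown as examples that carry both elements just before the start. RefSeq promoters of build GRCm38.p6 were available for 32 of the 39 genes. In 11 of the 32, these 6 among them, both elements stood within 100 bases before the start. Each line gives the 120 bases before the transcription start, 5′ to 3′ on the gene's own strand, with capitals for the CCAAT box and for either form of the CHR. A match on the other strand reads ATTGG for the box and TTCAAA for the first form of the CHR. They lie at chr10:69352913-69353032 (minus strand, Cdk1), chr2:164769809-164769928 (plus, Ube2c), chr4:118437344-118437463 (minus, Cdc20), chr15:102296173-102296292 (plus, Espl1), chr19:37376262-37376381 (plus, Kif11) and chr11:99024190-99024309 (minus, Top2a).
Cdk1: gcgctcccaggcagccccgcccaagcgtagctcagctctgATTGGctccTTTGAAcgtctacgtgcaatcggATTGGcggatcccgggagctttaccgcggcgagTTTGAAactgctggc
Ube2c: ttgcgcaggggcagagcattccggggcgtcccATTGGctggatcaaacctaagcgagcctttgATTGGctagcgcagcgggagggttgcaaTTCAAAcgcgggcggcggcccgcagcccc
Cdc20: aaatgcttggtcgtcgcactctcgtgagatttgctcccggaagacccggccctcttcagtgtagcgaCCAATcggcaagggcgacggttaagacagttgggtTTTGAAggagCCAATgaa
Espl1: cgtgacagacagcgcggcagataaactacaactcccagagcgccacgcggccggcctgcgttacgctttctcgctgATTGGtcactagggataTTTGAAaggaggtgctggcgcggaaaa
Kif11: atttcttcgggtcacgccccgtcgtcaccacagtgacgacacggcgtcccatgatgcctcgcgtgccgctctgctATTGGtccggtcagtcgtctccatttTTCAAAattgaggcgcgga
Top2a: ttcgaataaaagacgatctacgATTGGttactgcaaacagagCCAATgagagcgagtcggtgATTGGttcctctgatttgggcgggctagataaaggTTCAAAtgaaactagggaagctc
In this window the promoter of Top2a held 3 CCAAT boxes, those of Cdk1, Ube2c and Cdc20 held 2 each, and those of Espl1 and Kif11 held 1 each. Cdk1 had 2 copies of TTTGAA and the other 5 had 1.

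Over the 250 bases before the start, on both strands, CCAAT was found in 24 of the 32 promoters (75%), against 37.5% of 27025 genes with a promoter in the same table. TTTGAA was found in 12 of 32 (37.5%), against 18.3% of all genes, and TTTAAA in 6 of 32 (18.8%), against 13.7%. With the 50 bases after the start included, TTTGAA was found in 23 of 32 (71.9%), against 20.2% of all genes. CCAAT together with either form of the CHR stood in 15 of 32 promoters (46.9%) in the 250 bases before the start, against 10.1% of all genes. In the longer window it was 22 of 32 (68.8%), against 12.2% of all genes. These are matches of letters and say nothing of binding in these cells. The genes with the elements included both kinds described below, such as Espl1, which rose, and Kif11, which did not pass.

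**Figure D1:**
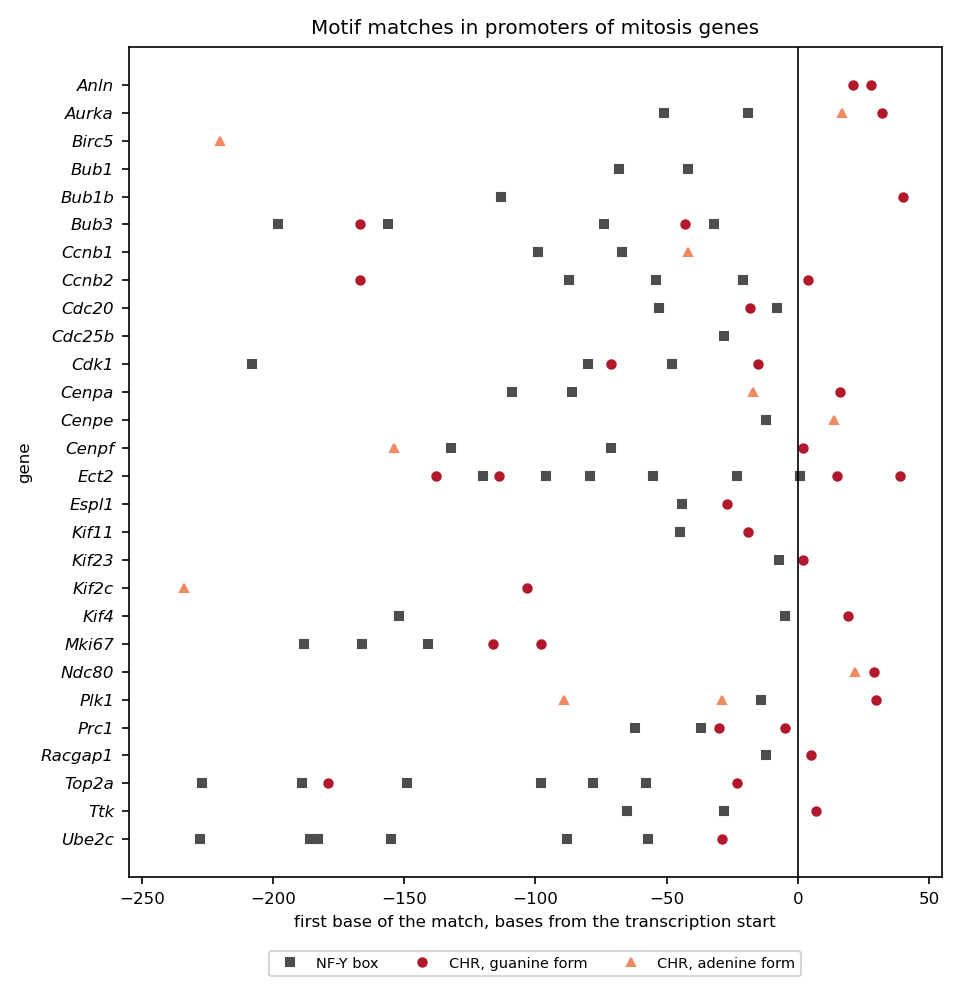
Positions of motif matches in the promoters of mitosis genes: the x axis gives the first base of each match in bases from the transcription start, squares are NF-Y boxes, circles and triangles are the guanine and adenine forms of the CHR. Of the 32 genes with a promoter, 28 had a match and are drawn, and genes with more than 1 annotated start (Bub3, Ect2, Prc1) have the matches of each start.

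Many of the measured mitosis genes were higher in the knockout arrays and 0 were called lower. Of 38 genes, 18 rose (limma, adjusted p under 0.05), 0 fell and 20 did not pass. An unadjusted p under 0.05 with a higher knockout mean was found in 24 of them and in 21.1% of all genes. Over all 12277 genes 13.7% were called, 8.63% higher and 5.07% lower. The called genes rose by 0.35 to 1.42 on the log2 scale, and they included the kinase Plk1, the cyclin Ccnb2, the transcription factor Foxm1, separase (Espl1) and the cytokinesis regulator Racgap1. The median log2 difference, knockout minus control, was 0.46 over the 38 genes and 0.0071 over all genes. It was above 0 in 33 of the 38 genes and in 62.0% of all genes. In 24 of the 38 genes every knockout array was above every control array, which was so for 23.4% of all genes, and in 0 genes was it the other way round (12.8% of all genes). Values are log2(signal + 16). In bulk RNA, a larger share of dividing cells and more RNA per dividing cell cannot be told apart.

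**Figure D2:**
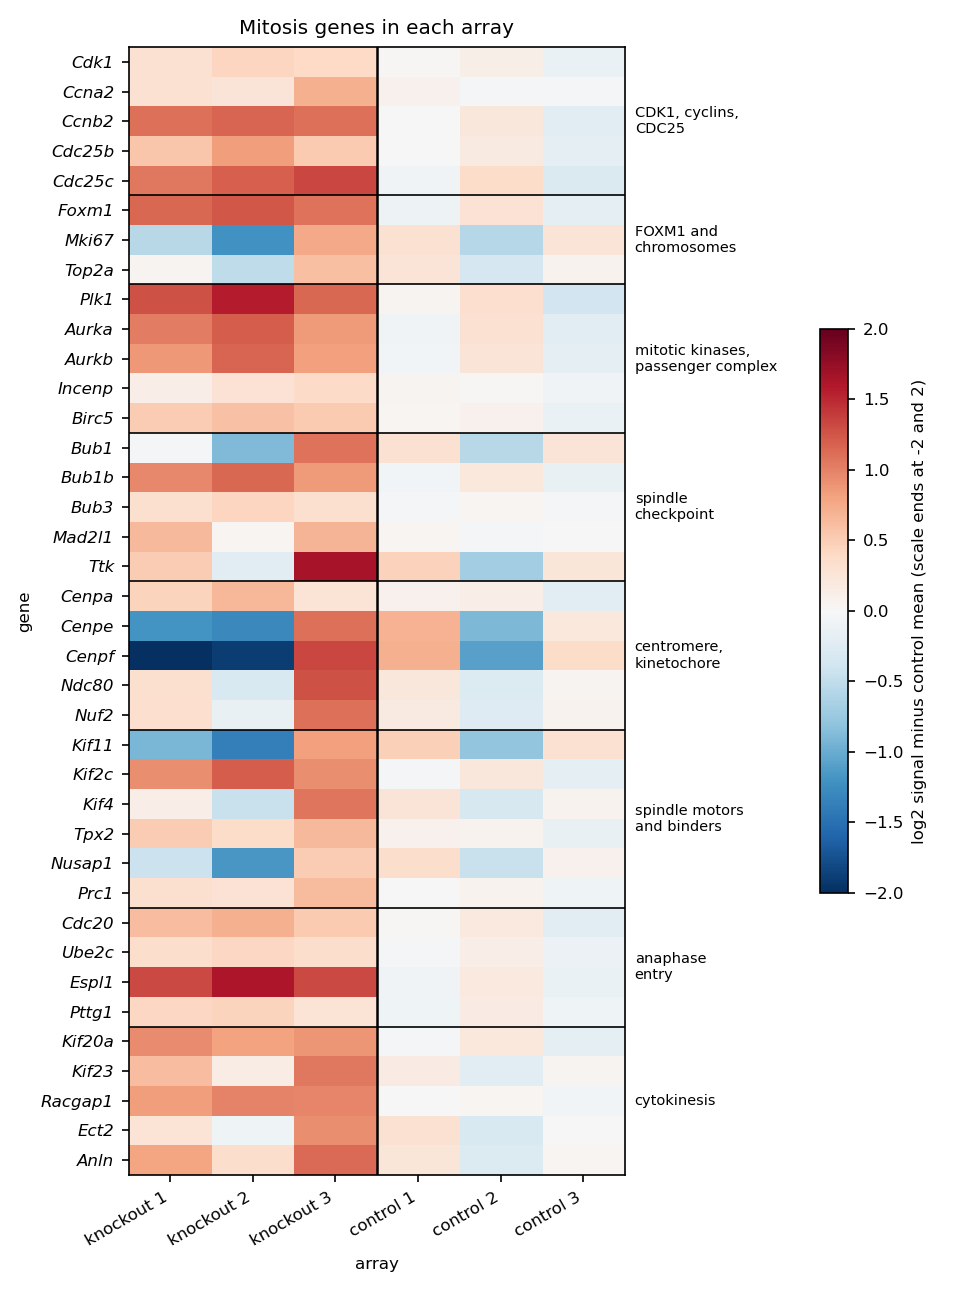
Heat map of 38 mitosis genes (rows, grouped by role) in 3 knockout and 3 control arrays (columns). Colour gives the log2 signal minus the mean of the control arrays, with the scale ending at -2 and 2; genes such as Espl1 and Racgap1 are red in all knockout arrays, whereas Cenpf, Cenpe and Kif11 are blue in knockouts 1 and 2 and red in knockout 3.

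The targeted gene gave no check of the labels. Epas1 read 8920, 9397 and 9859 intensity units in knockouts 1 to 3, against 9611, 9590 and 9444 in controls 1 to 3 (log2 difference -0.02 ± 0.04, SE, limma adjusted p = 0.753). Which exons were deleted is not given, and probe positions were not used here, so its probe set may lie outside the deletion and this signal cannot test the genotype. The median signal per array was 5.52 to 5.66, and 41.5% to 42.6% of probe sets were over a signal of 16, taken as the floor. Of 16 endothelial identity markers 14 were over this floor in all arrays, Pecam1 and Cdh5 among them, and Sox17 was under it. Of 15 tested, 4 fell (Tek, Erg, Tie1 and Pecam1), where 5.07% of all genes were called lower. The log2 difference was above 0 in 1 of the 15, with a median of -0.23. Cdh5 had -0.42 ± 0.13 and did not pass (limma adjusted p = 0.114). The 14 lung epithelial markers and 15 of 16 fibroblast and mural markers were under the floor in all arrays. The exception was Tagln, an actin-binding protein of smooth muscle, which read 207, 167 and 70.2 in knockouts, against 44.0, 74.9 and 32.1 in controls (log2 difference 1.25 ± 0.46, adjusted p = 0.144). Of 16 leukocyte markers with a probe set, 12 were under it in all arrays, Ptprc, Itgam, Lyz2 and Adgre1 among them, while Cd68 and Cd14 fell. The signals of the 16 leukocyte markers summed to 948 to 1308 in knockout arrays, against 4085 to 4738 in control arrays. Most of each sum was Cd68 alone, with 1032, 1126 and 756 in knockouts, against 3834, 4252 and 3688 in controls. The part of the endothelial markers, of Tagln and of these leukocyte genes in the mitosis result was not tested.

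Among CDK1, its cyclins and its activating phosphatases, 4 of 5 measured genes rose. For this count and those of the role classes below, the share of all genes called higher was 8.63%. Ccnb2, which encodes cyclin B2, read 6193, 6460 and 6205 in knockouts 1 to 3, against 2902, 3360 and 2454 in controls 1 to 3. The knockout arrays lay close together, and the lowest was well above the highest control array (log2 difference 1.12 ± 0.12, SE, adjusted p = 0.0128). Cdc25c, a phosphatase that activates CDK1 at mitotic entry, gave 1827, 2016 and 2227 in knockouts, against 830, 1128 and 714 in controls. It rose, with a log2 difference of 1.19 ± 0.19 (adjusted p = 0.0275), with control 2 the highest control array. Cdc25b, which acts earlier on the same kinase, and Cdk1 itself rose by 0.64 ± 0.14 and 0.38 ± 0.08 (adjusted p = 0.0486 and 0.044).

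Ccna2, the cyclin of S phase and G2, did not pass in its chosen probe set. It read 9107, 8787 and 12074 in knockouts, against 7753, 7130 and 7148 in controls, and knockout 3 stood above the others (0.43 ± 0.14, adjusted p = 0.114). Its further probe set disagreed in size: 9649, 9670 and 9502 in knockouts, against 4949, 5741 and 4853 in controls, with a log2 difference of 0.89 ± 0.07 (adjusted p = 0.0110 over probe sets). It also disagreed in array order, with knockout 3 the lowest knockout array and control 2 the highest control array. The groups did not overlap in either probe set.

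FOXM1, the forkhead factor that drives genes of G2 and mitosis, and the chromosome proteins Ki-67 and topoisomerase II alpha went apart. Foxm1 had 2205, 2339 and 2106 in knockouts, against 916, 1209 and 859 in controls, and rose by 1.16 ± 0.14 (adjusted p = 0.0162). Its 2 further probe sets past the filter also rose, by 1.23 and 1.22 (adjusted p = 0.0165 and 0.0286 over probe sets). Mki67, the most used marker of proliferation, gave 2448, 1546 and 6055 in knockouts, against 4423, 2423 and 4306 in controls. Here knockout 3 was the highest of all arrays and knockout 2 the lowest, so the groups overlapped fully (-0.33 ± 0.59, adjusted p = 0.774). Top2a, which untangles sister chromatids, had 5179, 3492 and 7562 in knockouts, against 6007, 3941 and 5276 in controls (0.04 ± 0.34, adjusted p = 0.935). Its sign turned negative without knockout 3 (-0.23) or without control 2 (-0.13), and that of Mki67 turned positive without knockout 2 (0.10).

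Of the mitotic kinases and the chromosomal passenger complex, 4 of 5 genes rose. Birc5 (survivin), the subunit that brings the complex to centromeres, read 24905, 26475 and 25344 in knockouts, against 18063, 18601 and 16081 in controls. The groups lay clearly apart and the difference of 0.54 ± 0.07 passed (adjusted p = 0.0155). Aurkb, the kinase of the complex, gave 5529, 6772 and 5344 in knockouts, against 2896, 3625 and 2629 in controls (0.95 ± 0.16, adjusted p = 0.0301). Plk1 and Aurka, which act at centrosomes and in spindle assembly, rose by 1.34 ± 0.23 and 1.03 ± 0.18 (adjusted p = 0.0303 and 0.0304). Incenp, the scaffold of the complex, had 14420, 16091 and 17181 in knockouts, against 13616, 13290 and 12433 in controls. The groups did not overlap, but the difference was small and did not pass (0.27 ± 0.08, adjusted p = 0.087).

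The spindle checkpoint, which delays anaphase while kinetochores are unattached, held 2 genes that rose among 5. Bub3, the protein that brings BUB1 and BUBR1 to kinetochores, read 15202, 16503 and 15242 in knockouts, against 12049, 12609 and 12035 in controls (0.35 ± 0.04, adjusted p = 0.0161). Bub1b, which encodes BUBR1, gave 4824, 5498 and 4461 in knockouts, against 2368, 2844 and 2211 in controls (0.99 ± 0.13, adjusted p = 0.0177). Both genes had groups that lay clearly apart. The kinase gene Bub1, in contrast, had 1892, 1044 and 4140 in knockouts, against 2405, 1322 and 2321 in controls, with knockout 3 far above and knockout 2 below every other array (0.05 ± 0.59, adjusted p = 0.955). Its sign turned negative without knockout 3 (-0.47) or control 2 (-0.23). Mad2l1 and the kinase Ttk had log2 differences of 0.45 ± 0.20 and 0.65 ± 0.60 and did not pass (adjusted p = 0.193 and 0.521).

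Among 5 centromere and kinetochore genes 0 passed, and 1 (Cenpa) had an unadjusted p under 0.05. Beside 8.63% of all genes called higher, this count is not read as a result about the class. Spc24 and Cenpu, kinetochore and centromere genes of the other list described below, rose. Cenpa, the histone H3 variant that marks centromeres, read 5256, 6092 and 4676 in knockouts, against 4073, 4241 and 3306 in controls. The groups did not overlap (0.46 ± 0.14, adjusted p = 0.106). Nuf2, a subunit of the complex that binds spindle microtubules, gave 1864, 1339 and 3175 in knockouts, against 1680, 1233 and 1557 in controls (0.43 ± 0.35, adjusted p = 0.466), and its partner Ndc80 had a like difference (0.43 ± 0.45). Cenpe, a kinetochore motor, had 167, 155 and 883 in knockouts, against 661, 208 and 472 in controls. Knockouts 1 and 2 were the lowest arrays and knockout 3 the highest, and the difference did not pass (-0.47 ± 0.84, adjusted p = 0.781). Cenpf, a large kinetochore-associated protein, also had its 2 lowest arrays in knockouts 1 and 2 and its highest in knockout 3, with 31.6, 48.4 and 588 in knockouts, against 379, 97.0 and 295 in controls (-0.97 ± 1.18, adjusted p = 0.639).

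Spindle motors and spindle-binding proteins were divided, with 2 of 6 genes called higher. Kif2c, a kinesin that takes microtubules apart, read 1685, 2036 and 1669 in knockouts, against 848, 1019 and 767 in controls (1.02 ± 0.14, adjusted p = 0.0193). Tpx2, which activates Aurora A and seeds spindle microtubules, gave 9310, 8439 and 10247 in knockouts, against 6941, 6865 and 5907 in controls (0.50 ± 0.10, adjusted p = 0.0438). In both genes the groups did not overlap. Kif4, a chromosome-bound motor, had 656, 433 and 1266 in knockouts, against 714, 473 and 623 in controls, and the knockout arrays spanned the whole control range (0.25 ± 0.44, adjusted p = 0.766). Without knockout 3 its sign turned negative (-0.15). Prc1, which bundles the midzone, had a difference of 0.42 ± 0.11 and did not pass (adjusted p = 0.0799), and the motor Kif11 and the microtubule binder Nusap1 had differences of -0.48 ± 0.72 and -0.36 ± 0.50 (adjusted p = 0.716 and 0.69).

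The genes that start anaphase were higher in 3 of 4 cases. Espl1, the protease that cuts the rings holding sister chromatids, had the largest log2 difference of the 38 genes. It read 1107, 1365 and 1102 in knockouts, against 412, 497 and 393 in controls (1.42 ± 0.13, adjusted p = 0.00924). Ube2c, the ubiquitin-conjugating enzyme of the APC/C, gave 21771, 22743 and 21730 in knockouts, against 16769, 18722 and 15627 in controls (0.38 ± 0.07, adjusted p = 0.0406). Its activator Cdc20 rose by 0.62 ± 0.12 (adjusted p = 0.0437). Pttg1, the securin that holds separase inactive, had 7425, 7580 and 6690 in knockouts, against 5242, 6237 and 5230 in controls, and did not pass although the groups did not overlap (0.38 ± 0.09, adjusted p = 0.0653).

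Cytokinesis genes held the value with the smallest p of all 38. Racgap1, a subunit of centralspindlin at the midzone, read 8219, 9149 and 9061 in knockouts, against 4626, 4759 and 4455 in controls. Each group was tight, and the log2 difference of 0.93 ± 0.05 passed (adjusted p = 0.00334). It was the only one of the 38 genes to pass with each array left out in turn. Kif20a, a motor needed for the cleavage furrow, gave 6254, 5666 and 5970 in knockouts, against 3145, 3756 and 2842 in controls (0.88 ± 0.12, adjusted p = 0.0179). Ect2, the exchange factor that activates RhoA for furrowing, had 2601, 2033 and 4101 in knockouts, against 2659, 1748 and 2143 in controls and did not pass (0.37 ± 0.32, adjusted p = 0.48). The centralspindlin motor Kif23 and the furrow scaffold Anln had differences of 0.61 ± 0.26 and 0.76 ± 0.25 (adjusted p = 0.193 and 0.117).

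**Figure D3:**
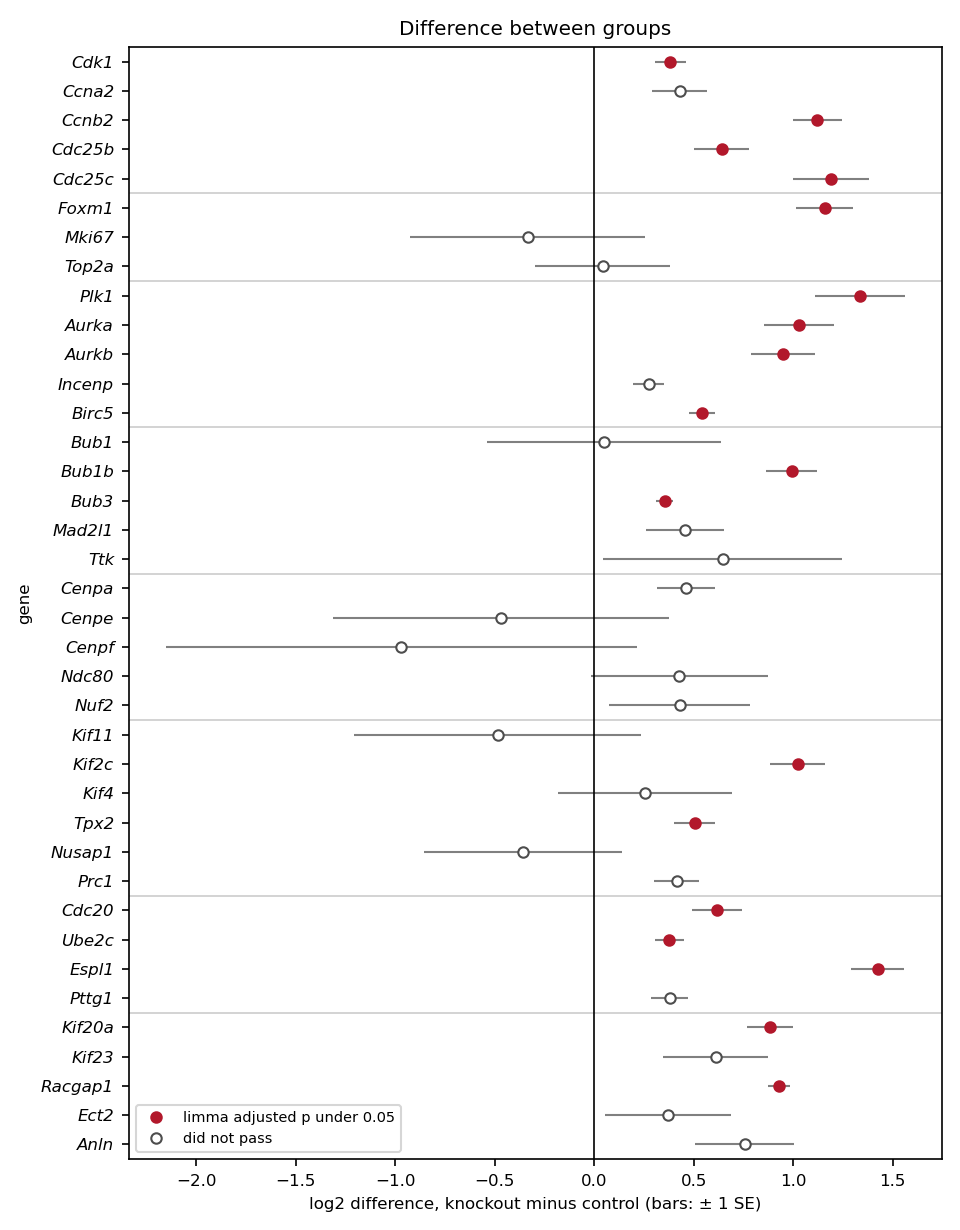
Log2 difference, knockout minus control, of each of 38 mitosis genes with its SE (limma, 3 arrays per group); filled points passed the adjusted p threshold of 0.05 and open points did not. The 18 filled points lie between 0.35 and 1.42, and the widest bars belong to Cenpf, Cenpe and Kif11.

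Further probe sets of the same genes mostly had the same sign. Of 36 further probe sets past the filter, from 23 genes, 31 had the sign of the chosen one. Tested over 27022 probe sets, of which 4.46% were called higher and 3.19% lower, 8 of the 36 were called higher and 0 lower. Those for Kif11 and Cenpe kept negative values too, -0.62 ± 0.85 and -0.56 ± 0.62 for Kif11 and -0.85 ± 0.78 for Cenpe. They did not pass (limma adjusted p = 0.713, 0.624 and 0.548 over probe sets). In each, knockout 3 was highest and control 2 lowest of their groups, and no fall is read from them.

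The spread within groups followed the same arrays in gene after gene. In 16 of the 38 genes knockout 3 was the highest knockout array and control 2 the lowest control array, an order found in 20.3% of all genes. These were Ccna2, Mki67, Top2a, Bub1, Mad2l1, Ttk, Cenpe, Cenpf, Ndc80, Nuf2, Kif11, Kif4, Nusap1, Kif23, Ect2 and Anln. Of them 0 were called, their log2 differences ran from -0.97 to 0.76, and the SD between arrays had a median of 0.78 in knockouts and 0.31 in controls on the log2 scale. Of all genes with that order 0.883% were called higher. Genes are placed here by their chosen probe set, and the further probe set of Ccna2, which passed over probe sets, had the opposite order.

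A second set of 12 genes had the opposite order, with knockout 3 lowest and control 2 highest of their groups, as had 42.0% of all genes. It comprised Cdc25b, Foxm1, Plk1, Aurka, Aurkb, Bub1b, Cenpa, Kif2c, Cdc20, Ube2c, Espl1 and Pttg1. Of these 10 were called higher (12.6% of all genes with that order), their median log2 difference was 0.97, and the median SD between arrays was 0.17 in knockouts and 0.20 in controls. The other 10 genes followed neither order, had a median difference of 0.52, and 8 of them were called, where 8.37% of all genes with neither order were called higher. In both the 12 and the 10 genes every knockout array was above every control array. These sets were formed after the values were seen and are a description.

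Array by array, the 16 genes had a median of 0.20, -0.38 and 1.06 in knockouts 1 to 3, against 0.28, -0.33 and 0.08 in controls 1 to 3, in log2 units over each gene's control mean. The 12 genes had 0.90, 1.16 and 0.83 in knockouts, against -0.05, 0.20 and -0.19 in controls. The sorting itself put knockout 2 below knockout 3 in the first set and above it in the second. Its place among the other arrays was not fixed. By this median knockout 2 was the lowest array in the first set, close to control 2, and the highest in the second. Across the 38 genes, the gap of knockout 3 over the mean of knockouts 1 and 2 and the gap of control 2 over the mean of controls 1 and 3 had a correlation of -0.96, beside -0.89 across all genes, which share the same 6 arrays. The widest gaps were in Cenpf (3.45 in knockouts and -1.63 in controls), Cenpe (2.35 and -1.36) and Kif11 (1.97 and -1.18).

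**Figure D4:**
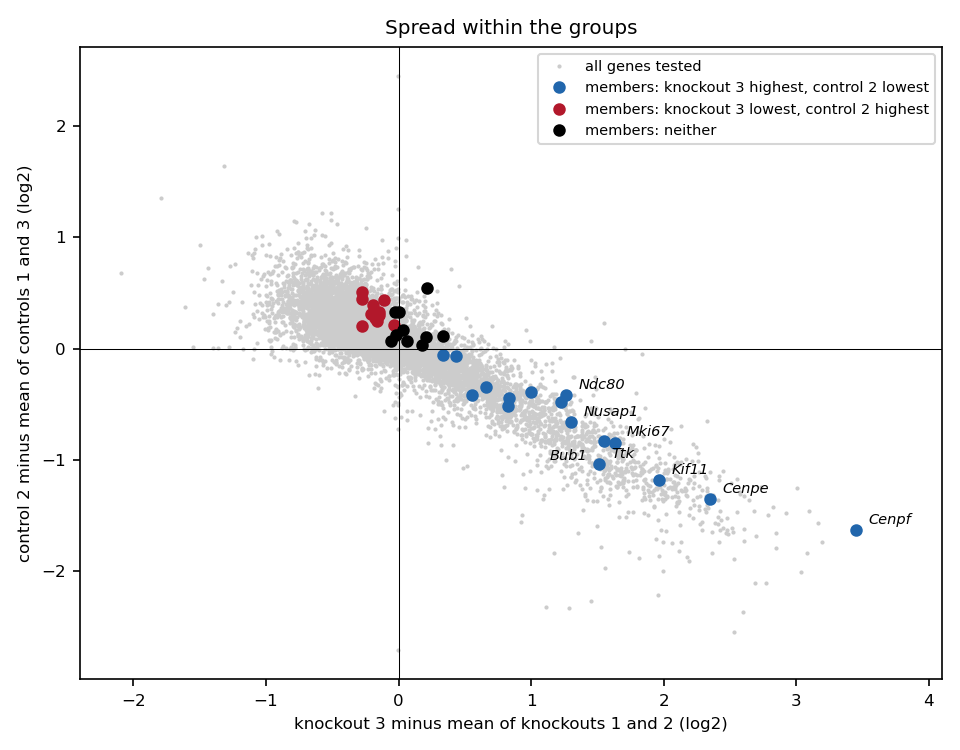
Spread within groups for each gene: the x axis gives knockout 3 minus the mean of knockouts 1 and 2 and the y axis control 2 minus the mean of controls 1 and 3, both in log2 units. Grey points are all genes tested and coloured points the 38 mitosis genes; Cenpf, Cenpe and Kif11 lie farthest out at the lower right, where knockout 3 is high and control 2 low.

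Control probe sets of the arrays moved with this order. The 18S ribosomal RNA probe set of the middle region read 23356, 17133 and 11365 in knockouts 1 to 3, against 14895, 27115 and 16222 in controls 1 to 3, so that it was lowest in knockout 3 and highest in control 2. A probe set for the 3′ end of the transferrin receptor read 237, 104 and 623 in knockouts, against 238, 97.0 and 257 in controls. The ratio of the 3′ to the 5′ probe set of beta-actin, a sign of RNA integrity, was 1.42, 1.42 and 1.49 in knockouts, against 1.55, 1.45 and 1.59 in controls. The bioB and bioC spike-in signal, on the log2 scale, was 11.03, 11.08 and 10.86 in knockouts, against 10.66, 10.88 and 10.78 in controls, so it was lowest in knockout 3 and highest in control 2 within groups and also mostly higher in knockouts. With it as a covariate 3 mitosis genes were called higher, where 1.34% of all genes were, and 1 of the 3 was among the 18. The differences of Mki67, Cenpe, Cenpf, Kif11 and Nusap1 turned positive but did not pass. The part of the other measures in the mitosis result was not tested.

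Most single calls rested on which arrays were in the fit. Without knockout 1, 2 or 3, the number of mitosis genes called higher was 2, 9 and 16, where 1.26%, 4.07% and 16.2% of all genes were called higher. Without control 1, 2 or 3 it was 1, 16 and 3, where 0.766%, 4.94% and 0.904% of all genes were. Of the 18 genes, 14 kept their call without knockout 3, 15 without control 2 and 8 without knockout 2. Espl1, Ccnb2 and Birc5 kept theirs in 4 of the 6 fits, and Cdk1, Cdc25b and Tpx2 in 0. The median difference of the 38 genes stayed between 0.39 and 0.59 in these 6 fits.

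**Figure D5:**
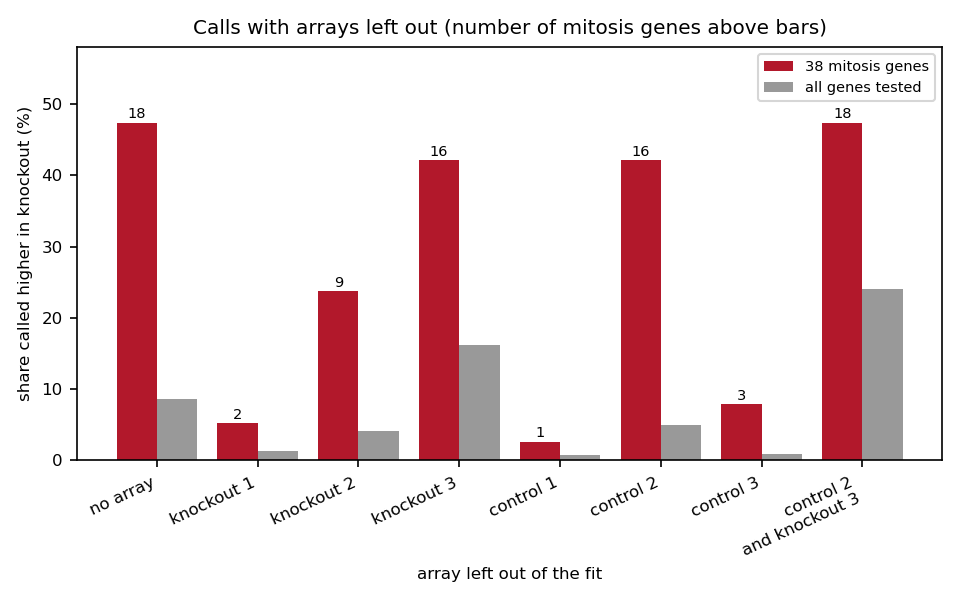
Share of the 38 mitosis genes and of all genes tested that were called higher in the knockout arrays, with no array left out, with each array left out in turn, and without control 2 and knockout 3 together. Bars start at 0, and numbers above the bars give the mitosis genes called, from 18 with all arrays to 1 without control 1.

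With knockout 3 and control 2 both left out, which leaves 2 arrays per group, 18 mitosis genes were called higher (24.0% of all genes) and 3 lower (13.8% of all genes), and 26 of 38 had a positive difference. Of the 18 genes called with all arrays, 16 were called again, among them Plk1 and Espl1 with log2 differences of 1.60 and 1.57. In these 2 genes, and in 10 of the 18, knockout 3 was lowest and control 2 highest of their groups. Leaving those arrays out raises their difference by construction, and no gain is read from it. The 3 lower genes were Cenpf (-2.66), Cenpe (-1.70) and Kif11 (-1.54). These are the genes with the widest gaps in the 2 arrays left out, so leaving those arrays out lowers their difference by construction, and no fall is read from it.

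Other genes of mitosis, from a list of 102, were called in the same direction only. Of 100 measured, 45 rose and 0 fell, where 8.63% of all genes were called higher and 5.07% lower. Their median log2 difference was 0.55. Zw10, a checkpoint protein that brings dynein to kinetochores, read 2572, 2197 and 2286 in knockouts, against 916, 950 and 944 in controls (1.31 ± 0.07, adjusted p = 0.00276). The groups were far apart, as they were for Spc24, the NDC80 complex subunit nearest the chromosome, with 2202, 2770 and 1985 in knockouts, against 417, 568 and 352 in controls (2.35 ± 0.22, adjusted p = 0.00968). The ubiquitin ligase Traip (2.06 ± 0.15), the chromosome protein Cdca2 (1.01 ± 0.08), the tubulin-binding Stmn1 (0.34 ± 0.03) and the centromere protein Cenpu (0.82 ± 0.08) were, with these 2, the 6 genes of the list with the smallest p-values. Of these 100 genes, 33 had knockout 3 highest and control 2 lowest and 37 the opposite order. The number called was 5, 18 and 45 without knockout 1, 2 or 3, where 1.26%, 4.07% and 16.2% of all genes were called higher. Without control 1, 2 or 3 it was 3, 32 and 4, where 0.766%, 4.94% and 0.904% of all genes were. Without knockout 3 and control 2 together, 55 were called higher (24.0% of all genes) and 10 lower (13.8% of all genes). The 10 lower genes all had knockout 3 highest and control 2 lowest. Leaving those arrays out lowers their difference by construction, and no fall is read from it. Genes with the opposite order are raised in the same way.

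Of 25 measured regulators of mitotic transcription, 3 rose and 1 fell, with a median of 0.24. Over all genes 8.63% were called higher and 5.07% lower, and counts this small are not read as a result about these regulators. Mybl2, which encodes B-MYB, the partner of MuvB and FOXM1, read 1154, 1396 and 1008 in knockouts, against 354, 395 and 244 in controls (1.81 ± 0.22, adjusted p = 0.0161). It was higher in every knockout array than in any control array. E2f8 and E2f7, repressors among the E2F factors, rose by 0.59 ± 0.09 and 0.47 ± 0.10 (adjusted p = 0.0227 and 0.0444). Cdkn1b, the CDK inhibitor p27, fell by 0.23 on the log2 scale, with 11767, 12937 and 12276 in knockouts, against 14273, 14268 and 14821 in controls (adjusted p = 0.0353). E2f4 and Tfdp1 had differences of 0.79 ± 0.19 and 0.24 ± 0.06 and did not pass. Of the 4 called genes, 0 passed without knockout 1, control 1 or control 3.

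Genes of DNA replication and S phase, which precede mitosis, were also higher, with 24 of 36 measured called higher and 0 lower. Over all genes 8.63% were called higher and 5.07% lower. Pole, of DNA polymerase epsilon, and Prim2, of primase, had the smallest p-values, with log2 differences of 0.92 ± 0.05 and 0.59 ± 0.04 (adjusted p = 0.00329 and 0.00459). The number called was 3, 13 and 26 without knockout 1, 2 or 3, where 1.26%, 4.07% and 16.2% of all genes were called higher. Without control 1, 2 or 3 it was 3, 13 and 4, where 0.766%, 4.94% and 0.904% of all genes were.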

How the data were processed

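Total RNA was amplified, biotin-labelled and hybridised to expression arrays, 1 per sample, per the labels' protocols. The deposited values are linear intensities, a single value for each probe set in each array. MAS5 and GCRMA are listed by the submitters' processing notes, with neither role nor version, so how the values were normalized is not settled. Array medians were close, but they lay under the floor of 16 and so do not show that expressed signal is comparable between arrays. No further normalization was applied.

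The table had 45101 probe sets, of which 64 controls were left out. Platform annotation named 1 gene for 34945 probe sets, several for 932 and none for 9211, controls included. The 40% with the lowest mean over 6 arrays were left out, leaving 27022 probe sets and 12277 genes, each by its brightest single-gene probe set. All 38 mitosis genes with a value passed this filter. Values were taken as log2(intensity + 16), which understates changes of dim genes. Groups were compared with limma 3.58.1 in R 4.3.3 (lmFit, eBayes, two-sided), with Benjamini-Hochberg adjustment over all genes and a threshold of 0.05. The script was tested on simulated data with independent spread for each gene. Such data lack the array order shared by many genes here, so that test says nothing of calls under it. Figures used matplotlib 3.10.9.

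Members and lists were chosen with earlier results of these data known. Values in every array are given, in each of 8 role classes, for the 2 genes with the smallest p and the 1 with the largest, and for genes called with each array left out; Ccna2's further probe set, Cenpf and values of fits without arrays were added after values were seen. Other mitosis genes and regulators are named by the 6 smallest p-values, and replication genes by 2. The number of arrays limits the precision.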

Additional observations from a re-analysis of the deposited data

How the results depend on the processing

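All 23 alternatives kept a positive median over the 38 mitosis genes. It was 0.39 to 0.59 with an array left out, 0.43 to 0.50 under the others except with the bioB and bioC spike-in signal as a covariate, where it was 0.82. The number of mitosis genes called (18 with all arrays) was 9 without a filter on dim probe sets, 28 with array weights, 3 with the spike-in covariate (Anln, Ect2 and Racgap1) and 1 with controls 1 and 3 averaged. Of all genes 2.82%, 35.5%, 1.34% and 0.774% were called higher there. It was 1 to 16 with an array left out, and 13 to 22 under the remaining settings. The other mitosis genes called (45) numbered 25, 77, 3 and 4 under those same settings, and 3 to 45 with an array left out. Over all genes the count (1683) was 883, 7334, 444 and 194 in the same order, 4644 without control 2 and knockout 3, and 207 to 3008 with an array left out. With the replicate number as a block 2995 genes were called, and 3589 with it as a random block. These blocked fits called 18 and 22 mitosis genes (16.9% and 19.3% of all genes were called higher). Deviations of same-numbered arrays correlated at -0.47, 0.84 and 0.80 for numbers 1 to 3, so the numbers were not taken to pair the arrays. Knockout 1 correlated best with control 2, not with its own number. Array weights were estimated gene by gene, since the default estimate did not converge.

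Signs of 12 mitosis genes turned in some setting. With array weights Top2a, Bub1 and Kif4 gave -0.13, -0.25 and -0.024. With the spike-in covariate Mki67, Cenpe, Cenpf, Kif11 and Nusap1 gave 1.02, 1.57, 1.71, 1.23 and 0.80. Without control 2 and knockout 3, Top2a, Bub1, Ttk, Ndc80, Nuf2, Kif4 and Ect2 gave -0.40, -0.74, -0.20, -0.13, -0.033, -0.32 and -0.053. With an array left out the range was -0.88 to 0.10 for Mki67, -0.79 to 0.042 for Nusap1, -0.23 to 0.32 for Top2a, -0.47 to 0.52 for Bub1 and -0.15 to 0.60 for Kif4. Of 874 single results of a gene under an alternative, 693 kept direction and side of the threshold, 130 lost and 29 gained a call, and 22 turned sign. The cause was not tested. None of the 12 genes is among the 18 called with all arrays.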
